A study of Mus musculus with 8 samples.

Results

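The genes described here encode the enzymes that make, use and recycle glutathione, the thioredoxin system, the enzymes that supply NADPH to both, and the transcription factor NRF2 with its repressor KEAP1 and its classical targets. They were chosen by name, as rows whose gene symbol equals 1 of 51 listed symbols, and all 51 were found among the 23235 rows of the authors' deposited table. All 51 had a status of OK, the mark of a completed comparison, as had 15783 rows in all. The members and their classes were set with earlier results of these data known.

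RNA from female C57BL/6 mice was sequenced from 5 normal tongues that received no 4-nitroquinoline 1-oxide (4-NQO) and from 3 squamous cell carcinomas of the tongue induced by 4-NQO, a carcinogen that forms bulky DNA adducts. The dose and length of treatment, the ages of the mice, and whether each sample is a separate animal are not stated by the labels. The deposited table holds 1 value per gene for each group, read here as FPKM (a level scaled to transcript length and to sequencing depth). No value per sample is used here, so the spread between samples, any overlap between the groups and the depth of each library are unknown. The ± after a log2 fold change is the standard error implied by the authors' own test. A gene counts as called at a deposited q-value below 0.05, and "rose" and "fell" are used only for these.

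Glutathione is a tripeptide thiol that buffers the cell against oxidants and electrophiles. Glutathione transferases join it to electrophilic compounds, glutathione peroxidases use it to reduce peroxides, and glutathione reductase restores it with NADPH, while thioredoxin and thioredoxin reductase run a parallel thiol system. NRF2 is held at low levels by KEAP1 and, when released, binds antioxidant response elements in many of these genes. The same enzymes bear on 4-NQO itself, which is conjugated by glutathione transferases and is reduced by the quinone reductase NQO1 to the hydroxylamine that leads to its DNA adducts.

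Genes of the first step of glutathione synthesis and of the alpha class of transferases were higher in the carcinomas, and the other classes held 1 further call, a decrease. Of the 51 members, 6 rose by the authors' deposited table, namely Gsta1, Gsta2, Gm3776, Gm10639, Gclc and Gclm, and 1 fell, Mgst3. The same rule called 3.07% of all tested genes higher and 3.19% lower, or 6.26% in either direction. Those 4 alpha genes are close copies, and counted as a single gene they leave 3 of 48 higher. Over the 51 members, 34 log2 fold changes were positive and 17 negative, with a median of 0.62 beside −0.04 for all tested genes. At an unadjusted p under 0.05 the table held 17 members with positive and 5 with negative fold changes, beside 8.22% and 12.5% of all tested genes. All 5 of the negative ones were transferases. The standard error of a member had a log2-scale median of 0.52, and that of all tested genes was 0.53. Its range was from 0.44 for Gss to 1.29 for Gsto2, the least abundant member in both groups.

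The number of calls moved with the threshold. At a q under 0.01 the same count of 6 members was higher and none was lower, against 1.96% and 1.65% of all tested genes in those directions. At a q under 0.10 there were 10 higher and 2 lower, against 3.64% and 4.42%. A Benjamini-Hochberg adjustment of the deposited p-values over the tested genes gave 11 and 2, against 3.98% and 5.02%. With that adjustment the mu class still had none, while Gpx2, Txn1, Nqo1, Tkt and Gsta4 were added on the higher side and Gstt1 on the lower.

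**Figure D1:**
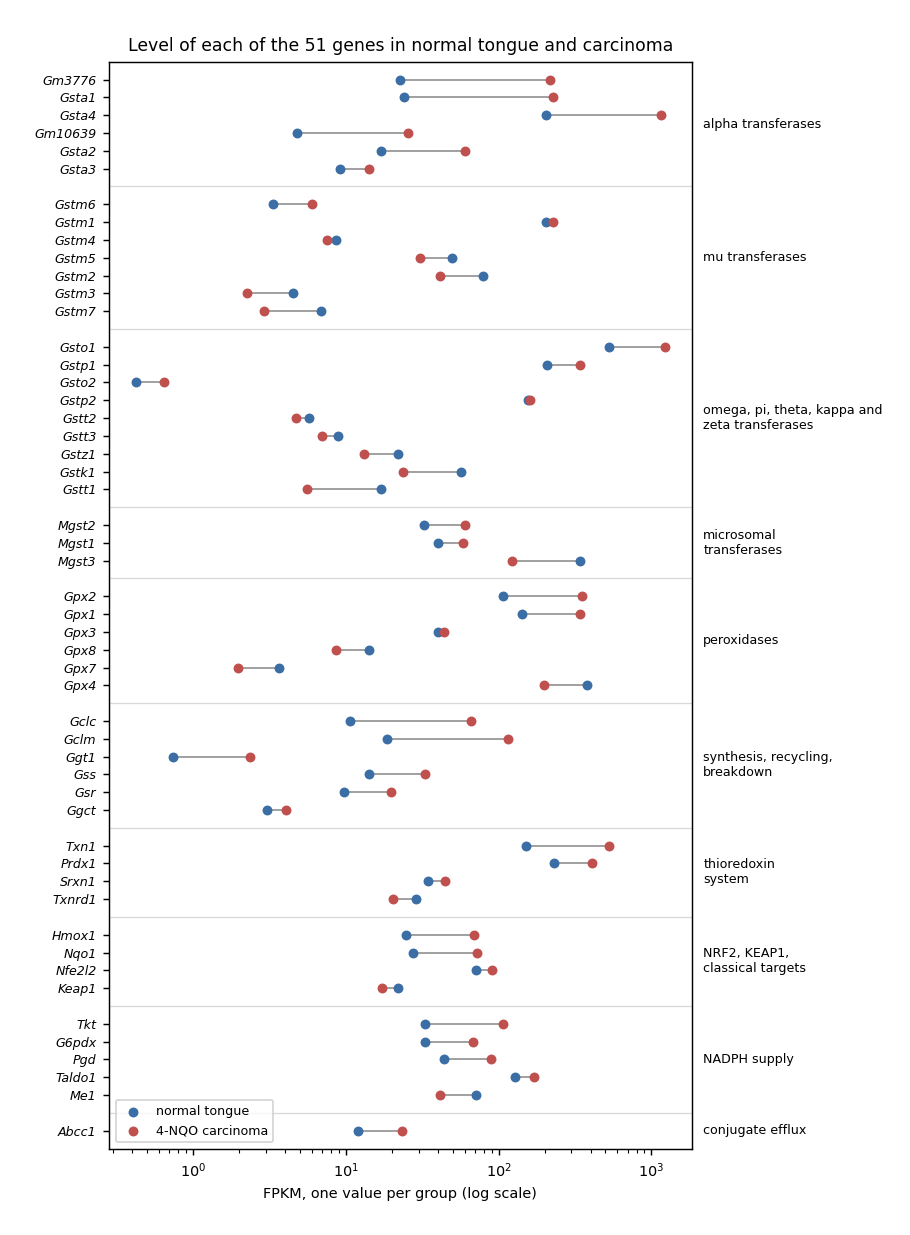
Level of each of the 51 genes in the authors' deposited table. Each row is a gene, blue points are normal tongue and red points 4-NQO carcinoma, in FPKM on a log axis with 1 value per group. The widest gaps are those of Gsta1 and Gm3776, at 24.0 and 22.5 FPKM in normal tongue and 227 and 216 in carcinoma.

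Alpha-class transferases conjugate and reduce electrophiles and organic hydroperoxides, and all 6 members had positive fold changes, with a median of 2.45. Gsta1 rose 9.47-fold in the authors' deposited table, from 24.0 FPKM in normal tongue to 227 in carcinoma (log2 fold change 3.24 ± 0.51, q = 5.64e-08). Gm3776, a predicted transferase gene, was listed at almost the same levels and rose from 22.5 to 216 FPKM (3.26 ± 0.51, q = 4.41e-08). Gm10639, a second predicted copy, rose from 4.79 to 25.6 FPKM (2.42 ± 0.58, q = 0.00229), and Gsta2 rose from 17.1 to 60.3 FPKM (1.82 ± 0.47, q = 0.00741).

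Gsta4, whose enzyme prefers the aldehydes formed when membrane lipids are oxidised, was the most abundant of the class in both groups. It was listed at 206 FPKM in normal tongue and 1150 in carcinoma in the deposited table, a 5.59-fold difference that missed the threshold (2.48 ± 0.80, q = 0.0664). Its standard error was the widest of the class. Gsta3 stood at 9.11 and 14.2 FPKM (0.64 ± 0.53, q = 1.00). Gsta3 is also the only one of the 6 outside the cluster, on chromosome 1.

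The other 5 lie side by side on chromosome 9, in the order Gsta4, Gsta1, Gm3776, Gm10639 and Gsta2. They span chr9:78039773-78194952 in the authors' coordinates, with the start given as 1-based, and no label names the mouse build. In the deposited table only Omt2a and Omt2b, a pair of genes too low to be tested, lie among them, both listed at 0 FPKM in normal tongue and at 0.0250 or less in carcinoma. The transcripts of Gsta1 and Gm3776 were 99.5% identical over 874 aligned bases in the GENCODE M21 transcripts of GRCm38, and 82.9% of the 50-base windows of Gsta1 occur unchanged in Gm3776. Against any other member of the class, that share was 89.7% for Gsta1, 92.5% for Gm3776, 63.5% for Gsta2 and 58.5% for Gm10639. How the authors divided reads among the copies is not known, so the value of a single copy is uncertain. Summed over the 4 copies the level was 68.4 FPKM in normal tongue and 529 in carcinoma, a ratio of 7.73 without an error. Gsta4 and Gsta3 shared no 50-base window with each other or with the 4 copies.

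The likeness extends upstream of the genes. The 250 bases before the start site of each copy, from RefSeq (GRCm38.p6), are shown because these are the 4 members that rose together and because they show how nearly the copies repeat each other. Capitals mark the longest run that the 4 windows share, 18 bases that begin at position −118 from the start site in Gsta1, −105 in Gm3776, −103 in Gm10639 and −121 in Gsta2.
Gsta1: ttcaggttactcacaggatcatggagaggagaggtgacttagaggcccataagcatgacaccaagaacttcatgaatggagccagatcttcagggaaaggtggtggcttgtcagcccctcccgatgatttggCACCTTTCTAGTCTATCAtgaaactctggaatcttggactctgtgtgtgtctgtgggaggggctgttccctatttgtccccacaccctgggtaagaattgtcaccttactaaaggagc
Gm3776: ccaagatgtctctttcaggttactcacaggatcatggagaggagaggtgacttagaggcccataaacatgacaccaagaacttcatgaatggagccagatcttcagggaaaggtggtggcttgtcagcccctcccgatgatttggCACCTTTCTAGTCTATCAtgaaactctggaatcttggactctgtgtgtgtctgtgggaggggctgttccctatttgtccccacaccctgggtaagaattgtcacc
Gm10639: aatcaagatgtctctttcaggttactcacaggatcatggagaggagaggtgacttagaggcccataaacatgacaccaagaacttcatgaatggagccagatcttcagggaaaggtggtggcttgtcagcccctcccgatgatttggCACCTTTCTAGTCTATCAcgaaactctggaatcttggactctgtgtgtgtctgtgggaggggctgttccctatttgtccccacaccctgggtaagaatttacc
Gsta2: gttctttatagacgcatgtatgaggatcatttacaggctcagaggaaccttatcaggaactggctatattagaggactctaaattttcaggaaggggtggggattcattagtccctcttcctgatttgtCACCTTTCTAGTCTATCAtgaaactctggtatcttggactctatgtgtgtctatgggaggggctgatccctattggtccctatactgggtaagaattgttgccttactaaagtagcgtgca
Gsta1 lies at chr9:78230419-78230668 on the plus strand, Gm3776 at chr9:78256879-78257128 and Gm10639 at chr9:78289678-78289927 on the same strand, and Gsta2 at chr9:78347146-78347395 on the minus strand. The windows of Gsta1 and Gm3776 were 99.6% identical over their 237 aligned bases and those of Gm3776 and Gm10639 99.2% identical over 248, whereas Gsta2 matched Gsta1 at 81.2% of 234 aligned bases.

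The other large family, the mu class, also lies in a single cluster, on chromosome 3, and was not called in either direction. Mu-class transferases detoxify epoxides and other electrophiles, and none of the 7 passed by the authors' deposited table, with 2 at an unadjusted p under 0.05, both negative. Their median log2 fold change was −0.69, and 5 of 7 were negative. Gstm1, the most abundant, was listed at 203 and 227 FPKM in normal tongue and carcinoma (0.16 ± 0.58, q = 1.00). The most negative was Gstm7, at 6.88 and 2.94 FPKM (−1.23 ± 0.61, q = 0.552), and the most positive Gstm6, at 3.36 and 6.02 FPKM (0.84 ± 0.61, q = 1.00). Gstm2, the second most abundant, stood at 79.3 and 41.5 FPKM in the deposited table (−0.93 ± 0.46, q = 0.538). These transcripts are less alike than the alpha copies: the highest share of 50-base windows found in another mu gene was 15.8%, for Gstm3, and 3 of the 7 shared none.

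Transferases of the omega, pi, theta, kappa and zeta classes held no call either, with 2 of 9 at an unadjusted p under 0.05, again both negative. Gsto1, an omega transferase that reduces dehydroascorbate and mixed disulphides, was the most abundant of all 51 members in both groups. The deposited table lists it at 526 FPKM in normal tongue and 1231 in carcinoma, with a standard error of 0.94 on a log2 fold change of 1.23 (q = 1.00). The pi-class pair Gstp1 and Gstp2 stood at 206 and 156 FPKM in normal tongue and at 344 and 160 in carcinoma (0.74 ± 0.52 and 0.03 ± 0.47, both q = 1.00). Their transcripts were 96.2% identical, and the summed level of the pair was 362 and 503 FPKM.

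The theta-class gene Gstt1, whose enzyme conjugates small halogenated compounds and epoxides, was the most negative of the 51 members. Its levels in the authors' deposited table were 17.0 and 5.57 FPKM, a difference short of the threshold (−1.61 ± 0.53, q = 0.0802). Its neighbours Gstt2 and Gstt3 had fold changes nearer to 0 (−0.29 ± 0.56 and −0.37 ± 0.47). Gstk1, the kappa transferase of mitochondria and peroxisomes, stood at 56.7 and 23.7 FPKM (−1.26 ± 0.46, q = 0.170). Gstz1, the zeta enzyme of tyrosine breakdown, was listed at 21.9 and 13.2 FPKM (−0.73 ± 0.47, q = 0.912).

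Mgst3 was the only member that fell. It encodes a membrane-bound transferase and peroxidase, and in the authors' deposited table its level went from 342 FPKM in normal tongue to 122 in carcinoma, 2.81-fold lower (−1.49 ± 0.45, q = 0.0412). This q lies close to the threshold and the call is lost at a q of 0.01. The related membrane enzymes Mgst1 and Mgst2 had positive fold changes that did not pass, at 40.4 and 58.6 FPKM (0.54 ± 0.45) and at 32.4 and 60.3 FPKM (0.89 ± 0.47).

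**Figure D2:**
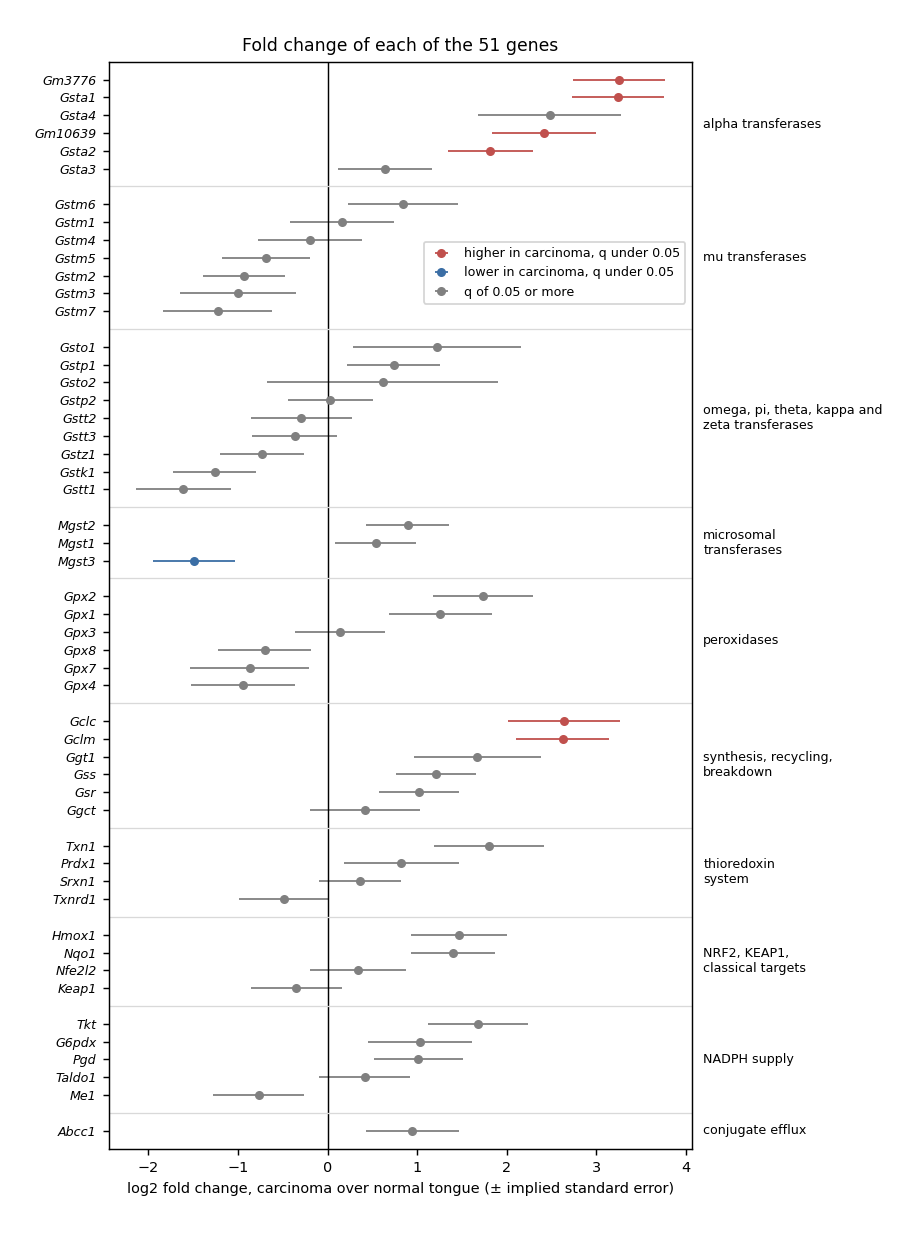
Log2 fold change of carcinoma over normal tongue for each of the 51 genes, from the authors' deposited table, with bars for the implied standard error. Red marks the 6 genes that rose, blue the gene that fell, Mgst3, and grey the 44 that did not pass.

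Glutathione synthesis showed the other increases. Gclc and Gclm encode the catalytic and the modifier subunit of glutamate-cysteine ligase, the rate-limiting step, and they rose by nearly the same factor in the authors' deposited table. Gclc went from 10.6 to 66.3 FPKM, 6.25-fold higher (2.64 ± 0.62, q = 0.00174). Gclm went from 18.7 to 116 FPKM, 6.18-fold higher (2.63 ± 0.52, q = 5.54e-05). Gclc lies on chromosome 9 and Gclm on chromosome 3.

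The later steps had smaller positive fold changes, none of which passed. Gss, the synthetase of the second step, was listed at 14.2 and 33.0 FPKM (1.21 ± 0.44, q = 0.160) in the deposited table. Gsr, the reductase that regenerates glutathione, stood at 9.68 and 19.6 FPKM (1.02 ± 0.45, q = 0.382). Ggt1, which opens extracellular glutathione for recovery of its amino acids, was low at 0.735 and 2.34 FPKM (1.67 ± 0.71, q = 0.338, or 0.95 with 1 FPKM added to both groups). Ggct, a cyclotransferase of the breakdown route, stood at 3.04 and 4.07 FPKM (0.42 ± 0.62, q = 1.00). All 6 genes of the class had positive fold changes, with a median of 1.44, and 5 of them were at an unadjusted p under 0.05.

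The glutathione peroxidases divided evenly by sign and none passed, with 2 of 6 at an unadjusted p under 0.05, both positive. Gpx2, the peroxidase of epithelia, came nearest in the authors' deposited table, at 106 FPKM in normal tongue and 354 in carcinoma (1.74 ± 0.56, q = 0.065). Gpx1, the widespread cytosolic enzyme, stood at 142 and 340 FPKM (1.26 ± 0.57, q = 0.432). Gpx4, which reduces lipid hydroperoxides in membranes and restrains ferroptosis, had the most negative fold change, at 380 and 198 FPKM (−0.94 ± 0.58, q = 0.854). It was the most abundant peroxidase in normal tongue, whereas Gpx2 and Gpx1 were listed above it in carcinoma. The 2 peroxidases of the endoplasmic reticulum, Gpx7 and Gpx8, had negative fold changes (−0.87 ± 0.67 and −0.70 ± 0.52), and the secreted Gpx3 stood at 39.9 and 43.8 FPKM.

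In the thioredoxin system no gene passed, and 1 of 4 was at an unadjusted p under 0.05. This was Txn1, thioredoxin itself, at 151 FPKM in normal tongue and 527 in carcinoma in the authors' deposited table (1.80 ± 0.61, q = 0.101). Txnrd1, the reductase that acts on it and a known NRF2 target, was listed at 28.7 and 20.5 FPKM (−0.49 ± 0.50, q = 1.00). That fold change is smaller than its standard error, so its sign is uncertain. Prdx1, a thioredoxin-dependent peroxidase, stood at 232 and 411 FPKM (0.83 ± 0.64, q = 1.00). Srxn1, which repairs over-oxidised peroxiredoxins, stood at 34.7 and 44.6 FPKM (0.36 ± 0.46, q = 1.00).

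Neither NRF2 nor its repressor passed the test. The deposited table gives Nfe2l2, which encodes NRF2, at 71.4 and 90.6 FPKM (0.34 ± 0.54, q = 1.00) and Keap1 at 22.0 and 17.3 FPKM (−0.35 ± 0.51, q = 1.00). NRF2 is controlled mainly through protein stability, which RNA levels do not show. Of its classical targets, Nqo1, the quinone reductase, had levels of 27.4 and 72.6 FPKM that missed the threshold (1.40 ± 0.47, q = 0.0925). Hmox1, the haem oxygenase that is also abundant in macrophages, stood at 24.8 and 68.5 FPKM (1.47 ± 0.53, q = 0.159). Both were at an unadjusted p under 0.05, the other 2 of the class were not, and none of the 4 passed.

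In the NADPH supply class none of 5 genes passed, with 2 at an unadjusted p under 0.05, Tkt and Pgd, both positive. Tkt, the transketolase of the non-oxidative pentose phosphate pathway, was listed at 33.1 and 106 FPKM in the authors' deposited table (1.68 ± 0.56, q = 0.0873). The table places the microRNA gene Mir3076 at the same locus, listed at 0 FPKM in normal tongue and 72.5 in carcinoma, and how reads were divided between the rows is not known. Txnrd1, Prdx1, Me1, G6pdx, Gstz1 and Gstm5 likewise share a listed locus with another gene. G6pdx and Pgd, the dehydrogenases that make NADPH in the oxidative branch, had like fold changes, at 33.0 and 67.6 FPKM (1.04 ± 0.58, q = 0.737) and at 44.1 and 88.9 FPKM (1.01 ± 0.50, q = 0.542). Taldo1, the transaldolase, was the most abundant at 128 and 170 FPKM (0.42 ± 0.51, q = 1.00). Me1, the cytosolic malic enzyme of lipogenic tissue, was the only negative one, at 71.0 and 41.6 FPKM (−0.77 ± 0.51, q = 0.935). Abcc1, the pump that exports glutathione conjugates, had levels of 12.1 and 23.3 FPKM without passing (0.95 ± 0.52, p = 0.0678 from the authors' test, q = 0.698).

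A search of RefSeq windows from 250 bases before to 50 after the start site placed the letters TGACNNNGC, the core of the antioxidant response element, beside these fold changes. Of 45 members with such a window, 14 held a match on either strand (31.1%), against 14.0% of 27025 genes, tested or not. A gene counted if any of its windows matched, so genes with more start sites had more chances. The members were listed partly as NRF2 targets, so their higher share is not independent of that choice. Gclc, which rose, and Gsta4, Gsr, Hmox1, Gstt2 and Abcc1 had no window and were not searched. Of these 14 members 1 rose, Gclm, and none fell, beside 3.07% of all tested genes called higher and 3.19% lower. At these shares a set this small would hold few calls or none, so the count cannot show whether a match goes with a call. None of the 4 alpha copies that rose held one. A match is only a run of letters, and many known elements of this kind lie further upstream than these windows reach. The matches below, each with up to 10 bases on either side and read 5′ to 3′ on the strand of the match, are shown for the member that rose, for NRF2 itself and for 3 members with contrasting fold changes. Capitals mark the match.
Gclm: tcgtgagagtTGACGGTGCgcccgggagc
Nfe2l2: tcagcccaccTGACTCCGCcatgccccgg
Prdx1: ctacgggggaTGACTCAGCgctttccctg
Txnrd1: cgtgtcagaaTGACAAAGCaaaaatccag
Me1: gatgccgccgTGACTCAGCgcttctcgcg
In GRCm38.p6 these lie at chr3:122245413-122245441 for Gclm, chr2:75704885-75704913 for Nfe2l2, chr4:116685456-116685484 for Prdx1, chr10:82859104-82859132 for Txnrd1 and chr9:86695902-86695930 for Me1, all on the minus strand. Gclm rose in the authors' deposited table, while Prdx1, Txnrd1 and Me1 did not pass, with log2 fold changes of 0.83, −0.49 and −0.77. The matches of Prdx1 and Me1 overlap a match to TGANTCA, the AP-1 site. That motif was found in the windows of 7 of the 45 members (15.6%) and of 8.97% of all genes. None of the 7 was called, beside 6.26% of all tested genes, and this set is likewise too small to read.

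Summed by class, the alpha transferases took a larger part of the total in carcinoma. Together the 51 genes came to 3708 FPKM in normal tongue and 6977 in carcinoma in the authors' deposited table. The alpha class made up 283 FPKM of the former and 1692 of the latter, from 7.64% to 24.3% of the total. Gsta4, which was not called (q = 0.0664), alone held the greater part of it. Microsomal transferases went the other way, from 415 to 241 FPKM, or 11.2% to 3.45%. Only Mgst3 of that class was lower in carcinoma, while Mgst1 and Mgst2 had positive fold changes. The class of synthesis, recycling and breakdown stood at 57.0 and 241 FPKM, a ratio of 4.23, and the thioredoxin system at 446 and 1002 FPKM, a ratio of 2.25. Mu transferases stood at 356 and 318 FPKM. These sums are weighted to the most abundant genes and carry no error.

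**Figure D3:**
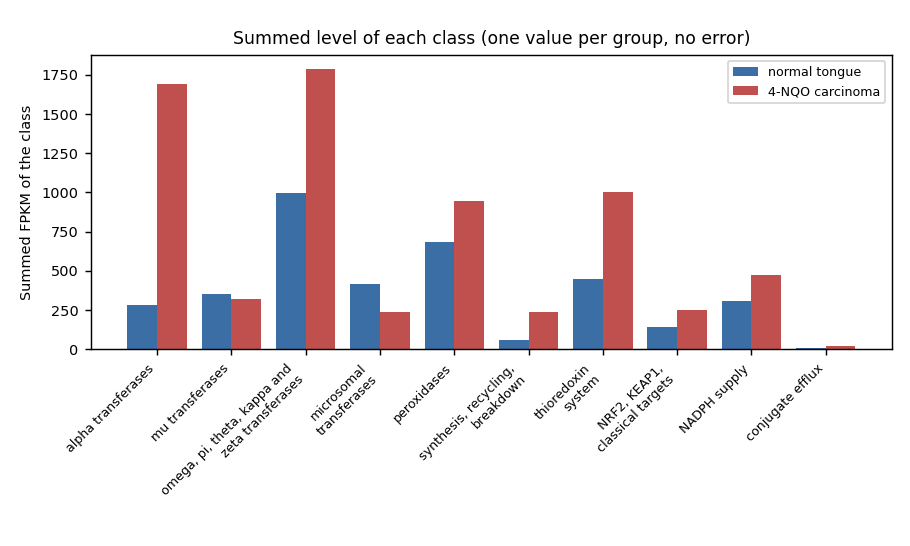
Summed FPKM of each class in normal tongue (blue) and 4-NQO carcinoma (red), from the authors' deposited table, with 1 value per group and no error. The alpha transferases stand at 283 and 1692 FPKM, and the microsomal transferases are higher in normal tongue, at 415 and 241, through Mgst3 alone.

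Related genes outside the 51 were called at a share near that of all tested genes. Of 81 tested genes in 6 lists of the same pathways, 3 had a higher and 3 a lower call by the authors' deposited table, or 7.41% in either direction beside 6.26% of all tested genes. Their median log2 fold change was −0.29. Slc7a11, which imports the cystine needed for glutathione, rose 17.3-fold, from 1.26 to 21.7 FPKM (4.11 ± 0.61, q = 3.48e-09). It was the only call among 15 genes of cystine and cysteine supply. Its partner chain Slc3a2 had levels of 30.7 and 80.4 FPKM, short of the threshold (q = 0.227).

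The list of other NRF2 targets had 2 increases and 1 decrease among 21 tested genes. These are 9.52% and 4.76%, beside 3.07% and 3.19% of all tested genes. Akr1b8, an aldo-keto reductase, rose from 5.01 FPKM to 54.0 (3.43 ± 0.53, q = 2.04e-08 in the deposited table). Abcc3, an exporter of conjugates, rose from 2.18 to 9.39 FPKM (2.11 ± 0.52, q = 0.00336). Abcg2, an efflux pump for xenobiotics, fell from 15.7 to 5.18 FPKM (−1.60 ± 0.45, q = 0.0211). The median of this list was −0.27, with 10 positive and 11 negative fold changes. Abcc2 was too low to be tested.

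The remaining lists had no increase. Among 12 other NADPH enzymes the mitochondrial genes Nnt and Me3 fell in the deposited table, or 16.7% beside 3.19% of all tested genes. Nnt, the transhydrogenase, went from 27.8 FPKM to 8.64 (−1.68 ± 0.44, q = 0.00833), and Me3, a malic enzyme, from 14.0 FPKM to 4.31 (−1.69 ± 0.45, q = 0.00856). Of 15 further thioredoxin, peroxiredoxin and glutaredoxin genes none was called, with 2 positive and 1 negative at an unadjusted p under 0.05. Over all tested genes, 8.22% were higher and 12.5% lower at that unadjusted p. Among 7 genes of superoxide and peroxide removal none was called, 4 were at an unadjusted p under 0.05, all negative, and the median was −1.03. They included Sod2, the mitochondrial superoxide dismutase, at 79.8 and 35.5 FPKM (−1.17 ± 0.51, q = 0.368). The 11 partners and regulators of NRF2 held no call and 2 with an unadjusted p under 0.05, both negative, and Msrb1 was not analysed here. The Benjamini-Hochberg adjustment gave 1 lower gene in each of the thioredoxin and superoxide lists and none among the partners.

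**Figure D4:**
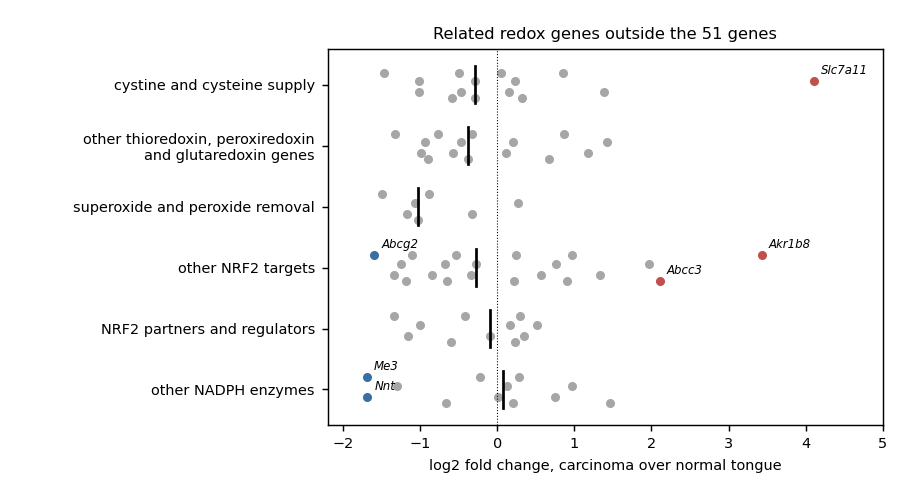
Log2 fold change of carcinoma over normal tongue for tested genes of 6 related lists, from the authors' deposited table. Points are genes, black bars are list medians, and named points passed q under 0.05 (red higher, blue lower). Slc7a11, at 4.11, lies furthest from 0.

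Marker genes of several cell types were listed at different levels in normal tongue and carcinoma. Of these, 2 of 15 for muscle and 1 of 11 tested for keratinocytes were called. Whether the tissues differed in the cells they held was not tested. In bulk tissue fewer cells of a type and less RNA per cell cannot be told apart. In the authors' deposited table all 15 skeletal muscle markers had negative fold changes. The 2 called ones are 13.3%, beside 3.19% of all tested genes called lower. At an unadjusted p under 0.05 there were 9 lower muscle markers, beside 12.5% of all tested genes. Their summed level was 21567 FPKM in normal tongue and 8214 in carcinoma. Single markers ran from 33.3 to 6511 FPKM in normal tongue and from 10.3 to 2632 in carcinoma. Of 11 tested keratinocyte markers 10 had positive fold changes, with sums of 2261 and 5612 FPKM and a median log2 fold change of 1.35. Only 1 of the 11 passed, on the higher side, or 9.09% beside 3.07% of all tested genes. At an unadjusted p under 0.05, 5 keratinocyte markers were higher and 1 lower, beside 8.22% and 12.5% of all tested genes. Krt4 and Krt13 are listed at 0 in both groups and Krt14 at 0 in carcinoma, each with a status of HIDATA rather than OK. Their zeros are not read as levels, and these sums leave the genes out. Single keratinocyte markers ran from −1.53 for Krt15 to 2.57 for Dsg3 on the log2 scale, and the muscle markers had a median of −1.60.

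The other marker lists had lower sums in carcinoma, apart from that of neutrophils. Their counts stand beside 3.07% of all tested genes called higher, 3.19% called lower and 12.5% lower at an unadjusted p under 0.05. Fibroblast markers stood at 777 and 299 FPKM with 2 of 9 called, both lower, and endothelial markers at 120 and 66.2 FPKM with 1 of 8 called, lower. The 4 tested red blood cell markers came to 390.3 and 145 FPKM with 1 called, lower. Macrophage markers were listed at 119 and 113 FPKM with none of 8 called and 1, negative, at an unadjusted p under 0.05. Adipocyte markers stood at 302 and 194 FPKM, none of 7 called and 2, both negative, at an unadjusted p under 0.05. Salivary gland markers stood at 1420 and 711 FPKM with 2 of 7 called lower and 1 higher. The 9 tested neutrophil markers summed to 148 and 7076 FPKM, almost all of it S100a8 and S100a9, which activated keratinocytes also express, and 2 were called in each direction. The part of these shifts in the fold changes of the 51 genes was not tested.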

How the data were processed

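Poly(A) RNA was sequenced with the Illumina TruSeq workflow, per the labels' protocols. The file used is a deposited table in which the authors compared the groups. Its FPKM values, 1 per group, were deposited by the authors, and the unit was read from the table's layout, since the header does not name it. Per the file headers each row also has a log2 fold change, a test statistic (a score whose sign is opposite to the fold change in 100% of rows with a finite fold), a p-value and a q-value. The submitters' processing notes name GSNAP 2011.11.17, edgeR and GRCh37, a human build, with no roles. The program behind the table, its mouse build and its way of dividing reads among copies were not given in the sources used here. Of 51 members, 2 start at the same position as in GRCm38.p6. The listed positions on chromosome 1 reach 197002909, past the last gene end of 195291439 in GRCm38.p6, so they are not positions of that build.

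No new test between groups was possible with 1 value per group, so neither was a replicate left out nor a pairing used, and depth is unknown. The standard error is the absolute log2 fold change divided by the absolute statistic, since the normal two-sided p it gives lies within 1% of the deposited p in 99.96% of tested rows. A q under 0.05 matched the authors' call in every row. The calculation of the standard error and of the Benjamini-Hochberg adjustment was checked on simulated normal data. That check cannot show whether the implied standard error is right for these samples. Members and lists were chosen with earlier results of these data known. Some listed marker genes are not reported here. Every called member, the most abundant and the extreme members of each class, and called genes of related lists were named; classes of 6 or fewer are given whole. Gstm2, Gstp2, Gstt2, Gstt3, Gstk1, Gstz1, Slc3a2 and Sod2 were named in addition, after their values were seen. Msrb1, for which no value was used, was also named. Alternatives were other q thresholds, a Benjamini-Hochberg adjustment over tested rows, at least 1 FPKM in the higher group, a pseudocount of 1 FPKM, re-centring, and leaving out or merging near-identical copies. Promoters (RefSeq, GRCm38.p6) were found for 45 members and transcripts (GENCODE M21) were matched by RefSeq accession. They were compared by global alignment with Biopython 1.88. Other work used Python 3.11.15, pandas 2.3.3, SciPy 1.17.1 and matplotlib 3.10.9.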

Additional observations from a re-analysis of the deposited data

How the results depend on the processing

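Counts of called genes moved with the threshold. Members higher in carcinoma numbered 6 at the deposited q under 0.05, 10 at q under 0.10 (3.64% of all tested genes) and 11 with Benjamini-Hochberg adjustment of the p-values of tested genes (3.98%). With the 4 alpha copies counted once, a choice made after the data were seen, there were 3. Members lower numbered 1, with 0 at q under 0.01 and 2 at q under 0.10 or with that adjustment (4.42% and 5.02% of all tested genes). By class, q under 0.10 and the Benjamini-Hochberg adjustment each gave 1 higher peroxidase (Gpx2) and 1 higher classical NRF2 target (Nqo1). They also gave 1 lower theta transferase (Gstt1) and 1 higher gene of the NADPH supply class, the transketolase Tkt. Each also took the alpha class from 4 to 5 higher, with Gsta4. G6pdx, Pgd and Me1 were called under neither. The adjustment also gave 1 higher thioredoxin gene (Txn1), and at q under 0.01 the microsomal class had 0 lower. The related lists went from 3 higher and 3 lower to 5 and 7 under the adjustment, also a choice made after the data were seen. The filter of 1 FPKM changed no count by over 1.5 times. The median log2 fold change of the members was 0.62. Under the 4 alternatives tried for it, it ran from 0.42, without members with a near-identical paralog, to 0.66 after re-centring. These moves were smaller than 0.52, the median standard error of a single member, which is not an error of this median. For single members, 50 of 51 stayed within 1 standard error with a pseudocount of 1 FPKM, with Ggt1 the exception at 0.95, and 51 of 51 after re-centring by 0.04. No sign changed under either, but these settings could hardly have changed one. A pseudocount cannot change a sign, and a shift of 0.04 can do so only for a fold change that close to 0. No paired analysis was possible because the table gives 1 value per group. With no value per sample, leaving out each sample was not run.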
